A study of Rattus norvegicus with 9 samples.

Results

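The genes that mark the macrophages living permanently in the liver were followed through carbon tetrachloride (CCl4) fibrosis and tormentic acid (TA) treatment in the rat. The 8 genes, Clec4f, Vsig4, Marco, Cd163, Timd4, Cd5l, Csf1r and Adgre1, were chosen by name as resident Kupffer cell genes, and all 8 were found among the 16730 genes listed in both deposited count tables. Poly(A) RNA of whole liver was sequenced from 9 male Sprague-Dawley rats, 3 in each of 3 groups. The normal control group received saline. The model group received CCl4 at 2 ml/kg for 9 weeks to make the liver fibrotic, and the TA group received the same CCl4 and then TA, a plant triterpenoid, for 6 weeks. CCl4 is therefore shared by the model and TA groups, and each comparison of TA VS Model and Model VS Normal uses the same 3 model livers. TA was given at several doses in the study, and the TA libraries carry only a number in their labels and no dose. Which dose these livers had is therefore not settled, they are treated here as 1 group, and each library is taken to be 1 rat. Nothing in the labels says more of how the livers were collected, so that p-values cover the spread between these libraries.

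Kupffer cells are the macrophages of the liver sinusoids, where they capture bacteria, aged red cells and debris from the blood. They are kept alive by signalling through the colony stimulating factor 1 receptor, encoded by Csf1r, and keep their identity through signals from stellate cells, sinusoidal endothelium and hepatocytes. Clec4f encodes a lectin found almost only on these cells in rodents. Vsig4 encodes a complement receptor, Marco and Cd163 encode scavenger receptors for bacteria and for haptoglobin-haemoglobin complexes, Timd4 encodes a phosphatidylserine receptor for dying cells, and Cd5l encodes a secreted protein of the same scavenger receptor family. Csf1r and Adgre1, the F4/80 antigen, are carried by macrophages from blood monocytes as well, which enter the liver in chronic injury.

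The libraries held 13156735 to 18090405 reads assigned to genes. The first model liver stood apart from the rest: its 50 most abundant genes took 27.9% of its reads against 40.4% to 45.7% in the other 8 livers. In that liver 6 hepatocyte markers summed to 26087 CPM (read counts scaled to a common library size, by the trimmed mean of M values), against 73655 and 91477 in the other model livers and 84886 to 146075 in the normal and TA livers. Its 6 stellate cell and fibroblast markers summed to 12338 CPM against 1139 and 1418 in the other model livers. Log2 fold changes of the 8 genes that rest on it are given with and without it, as are several counts. Fold changes of other genes and medians of gene lists are given only with it.

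In normal liver the 8 genes covered a wide range of level per length, as the deposited FPKM, fragments scaled by gene length and library size, give it. Clec4f stood highest at 71.0 ± 8.65 FPKM (SD, n = 3), ahead of Cd5l at 27.6 ± 10.7 FPKM. Vsig4 at 12.1 ± 1.96 FPKM and Marco at 12.0 ± 2.17 FPKM lay within each other's spread. Csf1r, at 9.41 ± 2.02 FPKM, ranked below both in each normal liver. Cd163, at 4.32 ± 1.10 FPKM, ranked above Adgre1, at 3.11 ± 0.774 FPKM, in each normal liver. Timd4 was the lowest at 0.604 ± 0.572 FPKM, from only 18, 8 and 2 reads. Clec4f ranked first of the 8 genes in 8 of the 9 livers, and was at rank 6 in the first model liver, where Csf1r ranked first. Timd4 ranked last in all 9 livers.

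**Figure D1:**
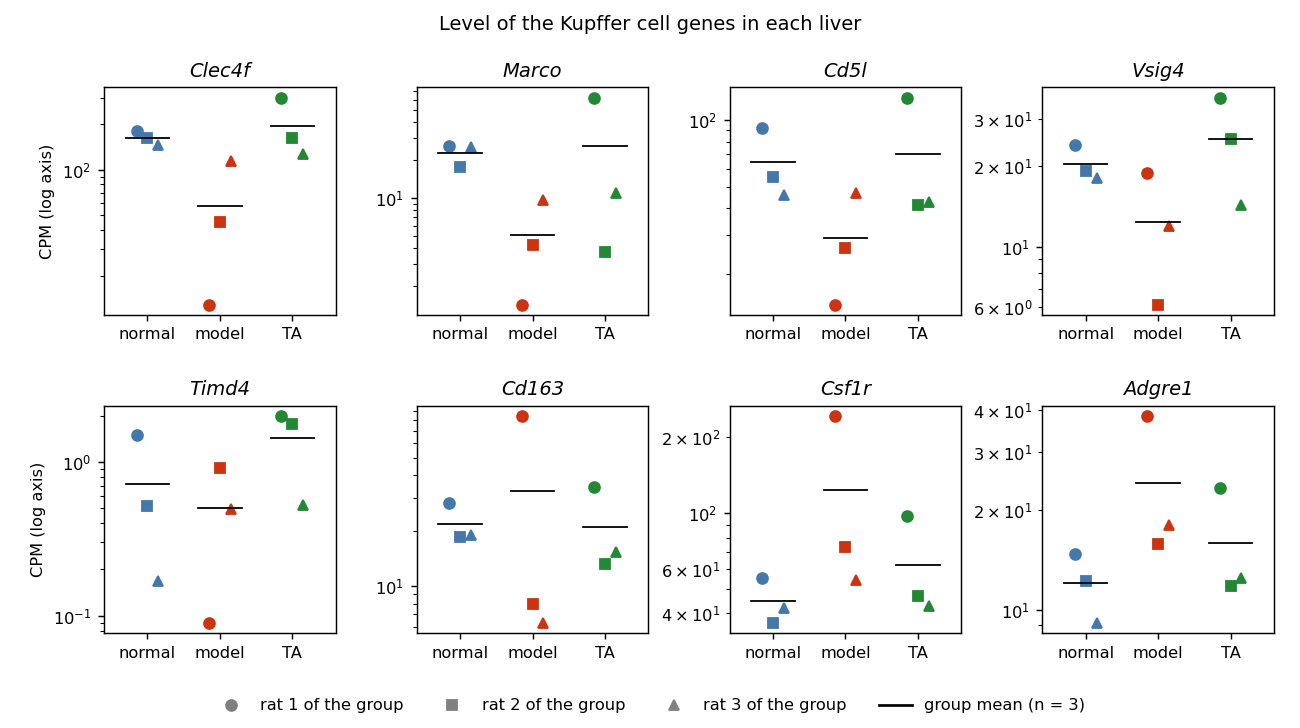
Level of each of the 8 Kupffer cell genes in the 9 livers, in CPM on a log axis, with normal, model and TA livers as separate columns of points and a black line at each group mean. Clec4f and Marco lay lower and Adgre1 higher in all 3 model livers than in the 3 normal livers, and the highest point of Csf1r, at 242.9 CPM, is the first model liver.

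The lectin Clec4f, the scavenger receptor Marco, the secreted Cd5l and the complement receptor Vsig4 had lower mean levels in the model group than in normal liver, and the receptors shared with other macrophages, Csf1r and Adgre1, had higher ones. The mean of the scavenger receptor Cd163 was above normal through the first model liver and below it in the other model livers, and Timd4 had too few reads to place. In whole liver RNA, fewer Kupffer cells and less RNA of these genes per cell cannot be told apart. Clec4f had 2160, 2537 and 1733 reads in the normal livers and 288, 687 and 1621 in the model livers, or 162.7 ± 17.0 CPM against 57.6 ± 52.0 CPM. Every model liver lay under every normal liver, although the third model liver, at 114.6 CPM, was near the lowest normal liver at 145.4 CPM. The log2 fold change was -1.50 (SE 0.66), with an adjusted p of 0.179 by the quasi-likelihood test of edgeR with Benjamini-Hochberg adjustment over all genes tested.

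Marco had the largest log2 fold change of the 7 genes tested. It had 308, 275 and 302 reads in the normal livers and 32, 64 and 137 in the model livers, or 22.9 ± 4.48 CPM against 5.11 ± 4.20 CPM. The groups did not overlap, and the first model liver had the fewest reads. For Marco the log2 fold change was -2.17 (SE 0.60, edgeR adjusted p = 0.0639). Cd5l had 1109, 856 and 546 reads in the normal livers and 325, 401 and 661 in the model livers, or 64.3 ± 24.5 CPM against 29.2 ± 16.3 CPM. The third model liver, at 46.7 CPM, lay just above the lowest normal liver at 45.8 CPM, so that the groups overlapped. Its log2 fold change was -1.14 (SE 0.45, edgeR adjusted p = 0.143).

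Vsig4 had 288, 298 and 216 reads in the normal livers and 423, 93 and 170 in the model livers, or 20.4 ± 3.08 CPM against 12.4 ± 6.42 CPM. The first model liver, at 18.9 CPM, lay within the normal range and the other model livers lay below it, with a log2 fold change of -0.71 (SE 0.39, edgeR adjusted p = 0.268). Scaled by library totals alone, which moved the median of all genes to 0.65, the log2 fold change of Vsig4 was 0.01, or -0.64 relative to that median. Timd4 had 18, 8 and 2 reads in the normal livers and 2, 14 and 7 in the model livers. At this depth no difference in Timd4 was detectable, and it did not pass the filter on low counts in this comparison.

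Csf1r had 665, 569 and 502 reads in the normal livers and 5425, 1113 and 765 in the model livers, or 44.6 ± 9.55 CPM against 123.4 ± 103.9 CPM. The third model liver, at 54.1 CPM, lay just under the highest normal liver at 55.2 CPM. The log2 fold change was 1.47 (SE 0.56, edgeR adjusted p = 0.129), and without the first model liver it was 0.50. Adgre1 had 178, 190 and 109 reads in the normal livers and 858, 241 and 255 in the model livers, or 12.0 ± 2.82 CPM against 24.1 ± 12.4 CPM. All 3 model livers lay above the normal livers, with a log2 fold change of 1.01 (SE 0.39, edgeR adjusted p = 0.133) that was 0.47 without the first model liver.

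Cd163 rested on 1 liver. It had 339, 288 and 226 reads in the normal livers and 1874, 121 and 89 in the model livers, so that 1 model liver, at 83.9 CPM, lay above the normal range of 18.5 to 28.1 CPM and the others, at 7.96 and 6.29 CPM, below it. The log2 fold change was 0.59 (SE 0.89, edgeR adjusted p = 0.686). Without the first model liver it was -1.63, with an edgeR adjusted p of 0.0202. In the first model liver Vsig4, Cd163, Csf1r and Adgre1 were at their highest and Clec4f, Marco, Timd4 and Cd5l at their lowest of the model group. Without that liver the log2 fold change was -1.05 for Clec4f, -1.73 for Marco, -0.83 for Cd5l and -1.19 for Vsig4.

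By an adjusted p under 0.05, 0 of the 7 genes tested were called in Model VS Normal by edgeR, where 7.87% of the 12730 genes tested were called. At an unadjusted p under 0.05 there were 4, Marco, Cd5l, Csf1r and Adgre1, where 28.9% of all genes were. At adjusted p under 0.05, DESeq2 called 1, Marco, where it called 16.1% of 16938 genes. Under the same rule limma voom with sample weights called 5, Clec4f, Vsig4, Marco, Cd163 and Cd5l, all lower in the model group, where it called 27.0% of 12730 genes. Without the first model liver edgeR called 2 at adjusted p under 0.05, Marco and Cd163, where it called 6.89% of all genes. Without the third model liver it called 4, Clec4f, Marco, Cd5l and Csf1r, where it called 19.3% of all genes. The study itself used 2 thresholds, a p under 0.05 before adjustment and a log2 fold change larger than 1 in either direction. By these, the 2 genes Marco and Cd5l were lower, where 5.55% of all genes were, and the 2 genes Csf1r and Adgre1 were higher, where 16.6% of all genes were. Leaving out the first model liver, 4 genes again passed, but these were Clec4f, Vsig4, Marco and Cd163, all lower, with 0 higher, where 16.0% of all genes passed in either direction. Only Marco passed without the second normal liver, where 17.8% of all genes passed, and only Marco and Cd5l without the third, where 18.9% passed. By DESeq2, the tool the study used, the 4 genes were Clec4f, Marco and Cd5l, which were lower, and Csf1r, which was higher, where 21.3% of all genes passed. Levels did not overlap for 2 genes lower in the model group, Clec4f and Marco, where 17.3% of all genes did so, and for 1 gene higher, Adgre1, where 20.9% did so. Without the third normal, the first model or the third model liver, 5 genes did not overlap, where 51.1%, 43.3% and 53.1% of all genes did not.

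**Figure D2:**
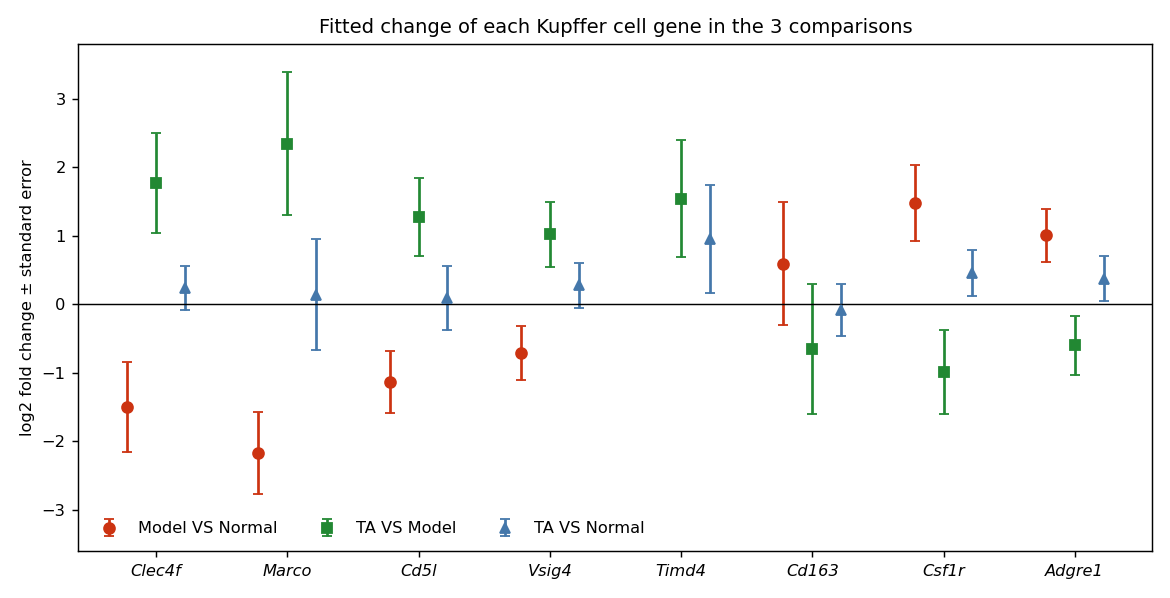
Log2 fold change of each Kupffer cell gene in the 3 comparisons, with bars of 1 standard error from edgeR, over 3 livers a group. Marco and Clec4f lie farthest below 0 in Model VS Normal, at -2.17 and -1.50, farthest above 0 in TA VS Model, at 2.34 and 1.78, and near 0 in TA VS Normal.

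The 8 genes were also set against the other macrophage transcripts of the same liver. For each liver the log2 CPM of each gene was taken relative to the mean log2 CPM of 15 pan-macrophage genes such as Cd68, Lyz2 and C1qa, whose summed level was 670.2 to 948.4 CPM in normal, 1063 to 4072 CPM in model and 787.0 to 1374 CPM in TA livers. Relative to these genes, Marco was lower in model than in normal livers by a mean difference of -3.45 on the log2 scale, Clec4f by -2.96, Cd5l by -2.20 and Vsig4 by -1.82. None of these 4 ratios overlapped between the groups, where 39.8% of all genes had a ratio lower in all model livers. Cd163, with a difference of -1.37, and Timd4, with -1.33, overlapped. With the first model liver left out the differences were smaller for Marco at -2.23, Clec4f at -1.61, Cd5l at -1.24 and Vsig4 at -1.66, -2.02 for Cd163 and -0.19 for Timd4. The ratios of Csf1r, with a difference of 0.19, and of Adgre1, with -0.07, also overlapped. The exact permutation test of 3 livers against 3 cannot give a two-sided p below 0.1, which each of the 4 separated ratios reached.

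**Figure D3:**
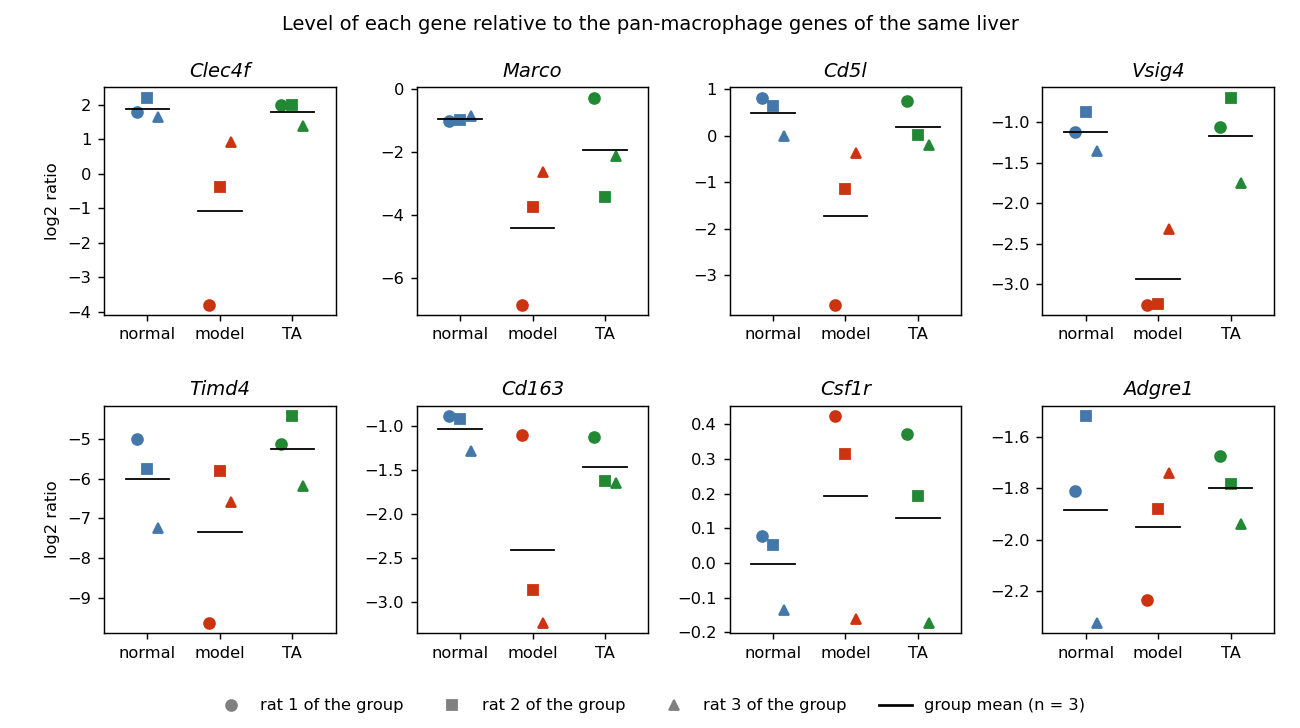
Log2 ratio of each Kupffer cell gene to the mean of 15 pan-macrophage genes in the same liver, as points for the 3 normal, 3 model and 3 TA livers. The model points of Clec4f, Vsig4, Marco and Cd5l lie below all normal points, and those of Csf1r and Adgre1 mix with them.

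The first model liver showed the widest gap. Per length, Clec4f stood at 6.71, 9.21 and 7.13 times the FPKM of Csf1r in the normal livers, at 0.110, 1.27 and 4.38 times in the model livers and at 6.36, 7.15 and 6.08 times in the TA livers. Of the summed FPKM of the 8 genes, Clec4f made up 46.7% to 54.6% in normal livers and 5.53%, 33.6% and 50.0% in model livers 1, 2 and 3. Csf1r made up 5.92% to 7.27% in normal livers and 50.4%, 26.3% and 11.4% in model livers 1, 2 and 3. Model liver 3 was the closest to normal in both shares.

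**Figure D4:**
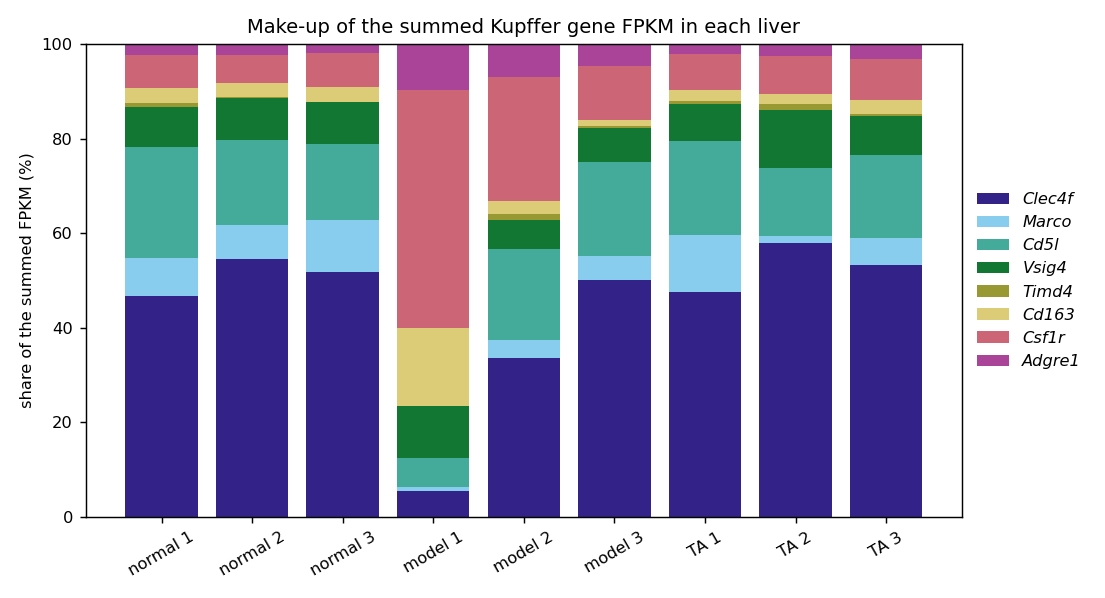
Share of each Kupffer cell gene in the summed FPKM of the 8 genes, in percent, as 1 stacked bar for each of the 9 livers. Clec4f takes 46.7% to 57.8% in the normal and TA livers and takes 5.53% in the first model liver, where Csf1r takes 50.4%.

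In TA VS Model, which shares its model livers with the comparison above, Clec4f was higher with TA by the study's thresholds in edgeR, and the means of Vsig4, Marco, Timd4 and Cd5l were above those of the model group without passing them. By DESeq2 the 4 genes Clec4f, Vsig4, Marco and Cd5l passed the same thresholds, all higher with TA, where 12.8% of all genes passed in either direction. Clec4f had 4206, 1925 and 1693 reads in the TA livers, or 196.1 ± 91.2 CPM. Each TA liver lay above each model liver, by a narrow margin between the third TA liver at 126.2 CPM and the third model liver at 114.6 CPM. The log2 fold change was 1.78 (SE 0.73, edgeR adjusted p = 0.306). By library totals alone these groups overlapped, and with any 1 library left out 2 or 3 of the 8 genes did not overlap, where 28.3% to 42.7% of all genes did not.

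Marco had 873, 44 and 146 reads in the TA livers, or 25.6 ± 31.9 CPM, with the first TA liver at 62.1 CPM and the others at 3.72 and 10.9 CPM. TA livers 2 and 3 lay within or near the model range of 1.43 to 9.68 CPM. Marco had a log2 fold change of 2.34 (SE 1.04, edgeR adjusted p = 0.326), which was 0.53 without the first TA liver. Cd5l had 1780, 488 and 568 reads, or 70.1 ± 49.0 CPM, and overlapped with the model group. Its log2 fold change of 1.27 (SE 0.57, edgeR adjusted p = 0.326) was 0.53 without the first TA liver. The first TA liver had the highest CPM of its group for all 8 genes, as the first normal liver did in the normal group.

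Vsig4 had 506, 300 and 192 reads in the TA livers, or 25.2 ± 10.8 CPM, against 12.4 ± 6.42 CPM in the model group. The groups overlapped, with a log2 fold change of 1.03 (SE 0.47, edgeR adjusted p = 0.337). Timd4 had 28, 21 and 7 reads, the most of any group, and a log2 fold change of 1.54 (SE 0.85, edgeR adjusted p = 0.398). Csf1r had 1365, 556 and 575 reads, or 62.3 ± 30.2 CPM. Its log2 fold change of -0.99 (SE 0.61, edgeR adjusted p = 0.437) was -0.02 without the first model liver. Adgre1 had 329, 140 and 168 reads and a log2 fold change of -0.60 (SE 0.43, edgeR adjusted p = 0.492), which was -0.08 without that liver. Cd163 had 483, 156 and 205 reads and a log2 fold change of -0.65 (SE 0.94, edgeR adjusted p = 0.747), which was 1.57 without it. Without the first model liver the log2 fold change was 1.30 for Clec4f, 1.89 for Marco and 0.95 for Cd5l. It was then 1.49 for Vsig4 and 1.01 for Timd4.

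By an adjusted p under 0.05, edgeR called 0 of the 8 genes in TA VS Model, where it called 0% of 12781 genes, and at an unadjusted p under 0.05 it called 1, Clec4f, where 15.6% of all genes were. DESeq2 and limma voom also called 0 of these genes at adjusted p under 0.05, where they called 3.1% and 1.32% of all genes. By the study's thresholds 1 gene, Clec4f, was higher with TA, where 2.11% of all genes were, and its level did not overlap between the groups, where 10.6% of all genes were higher without overlap. When 1 library was left out, Clec4f passed only without the first or the third model liver. The genes that passed were Clec4f, Vsig4 and Cd163 without the first model liver, where 6.13% of all genes passed in either direction, and Clec4f, Marco and Cd5l without the third, where 21.2% did. They were Marco and Cd5l without the second TA liver, where 7.34% of all genes passed, and Vsig4 without the third, where 9.50% did. Without the second model liver or the first TA liver 0 of the 8 passed, where 12.2% and 10.4% of all genes did. Relative to the 15 pan-macrophage genes, 3 ratios were higher in every TA liver than in every model liver, where 8.14% of all genes were. The mean differences were 2.87 for Clec4f, 1.91 for Cd5l and 1.77 for Vsig4, each at the smallest exact permutation p of 0.1. Leaving out the first model liver gave 1.52 for Clec4f, 0.95 for Cd5l and 1.61 for Vsig4. Marco, with a difference of 2.47, overlapped between the groups, as did Timd4 with 2.08 and Cd163 with 0.93. When the first model liver was left out, the differences of these 3 genes were 1.25, 0.93 and 1.58, and without the first TA liver the difference of Marco was 1.63. The ratios of Csf1r and Adgre1 had differences of -0.06 and 0.15.

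In TA VS Normal, which sets columns of both deposited tables side by side as raw counts, no difference in the 8 genes was detectable with 3 livers a group. The log2 fold change was 0.24 for Clec4f (SE 0.32), 0.28 for Vsig4 (SE 0.33) and 0.14 for Marco (SE 0.81), with edgeR adjusted p-values of 0.922, 0.906 and 0.989. It was 0.95 for Timd4 (SE 0.79), 0.10 for Cd5l (SE 0.47), -0.09 for Cd163 (SE 0.38), 0.46 for Csf1r (SE 0.34) and 0.37 for Adgre1 (SE 0.33). By edgeR 0 of 8 genes were called at adjusted p under 0.05, where 0.263% of 12179 genes were, and 0 at an unadjusted p under 0.05, where 9.43% were. DESeq2 and limma voom also called 0 at adjusted p under 0.05, where they called 2.12% and 1.03% of all genes. By the study's thresholds 0 were called, where 5.25% of all genes were, and 0 did not overlap, where 15.1% did not. Without the first TA liver, the log2 fold change of Marco was -1.68 and it passed the study's thresholds, and 3 genes no longer overlapped, where 19.8% of all genes did not. Without the third TA liver 2 did not overlap, where 35.6% of all genes did not. Marco also stood lower against Csf1r in TA livers 2 and 3, at 0.198 and 0.636 times its FPKM, than in the normal livers at 1.16 to 1.51 times, while the first TA liver was at 1.60 times. The ratio of Cd163 to Csf1r was 0.262 to 0.333 in TA livers and 0.421 to 0.476 in normal livers, without overlap. On the log2 CPM scale, 1 of the other 7 genes, Cd163, had a ratio to Csf1r that separated these groups, where 7.88% of all genes did. Of the ratios to the pan-macrophage genes, 0 separated these groups, where 9.47% of all genes did. That count was 2 without the first TA liver, where 14.6% of all genes separated, and 1 without the third normal or the third TA liver, where 13.9% and 20.1% did.

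Of 16 further genes known as enriched in Kupffer cells, 0 passed an adjusted p under 0.05 in Model VS Normal by edgeR, where 7.87% of all genes did. By the study's thresholds 6 were higher, where 16.6% of all genes were, and 2 were lower, where 5.55% were. The median log2 fold change of the list was 0.93 against 0.02 over all genes tested. Folr2, a folate receptor, was higher with a log2 fold change of 3.04, and Spic, a transcription factor of haem-handling macrophages, with 2.19. Folr2 had 2537 reads in the first model liver and 170 and 172 in the others, against 51 to 89 in normal livers. The 2 lower genes were Clec1b, a lectin receptor, with a log2 fold change of -1.34 (SE 0.54), and Nr1h3, which encodes the nuclear receptor LXR-alpha that helps set Kupffer cell identity, with -1.18 (SE 0.43). Some genes of this list are shared with other liver cells. Nr1h3 had a mean of 217.4 CPM in normal livers and was lowest in the first model liver, at 45.7 CPM, where the hepatocyte markers were also lowest. The part of hepatocytes in its level was not tested. Clec1b was the 1 higher gene of this list in TA VS Model, at 1.55 (SE 0.54), with 123, 78 and 121 reads in TA livers against 27, 31 and 73 in model livers. Spic, at -1.77, and Vcam1, an adhesion molecule, at -1.51, were the 2 lower. In that comparison 2.11% of all genes were higher and 10.2% lower. In TA VS Normal 0 of the 16 passed either rule by edgeR, where 0.263% of all genes passed the adjusted p and 5.25% the study's thresholds. The 8 genes past the study's thresholds in Model VS Normal were 3 without the second normal liver, 2 without the third normal liver and 5 without the first model liver. The shares of all genes were then 17.8%, 18.9% and 16.0%. The 3 in TA VS Model were 6 without the third model liver and 1 without the third TA liver, where 21.2% and 9.50% of all genes passed. The 0 in TA VS Normal was 1 without the second TA liver, where 6.23% of all genes passed.

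Of 15 genes shared by macrophages in general, 8 were higher in Model VS Normal by the study's thresholds, where 16.6% of all genes were. The median log2 fold change of the 15 was 1.27. Between TA and model livers 6 were lower, where 10.2% of all genes were lower, with a median of -1.21, led by Lyz2, a lysozyme gene, at -2.60 and Fcer1g, an Fc receptor subunit, at -1.79. Cybb, the catalytic subunit of the phagocyte oxidase, was the 1 gene called at adjusted p under 0.05 in Model VS Normal, at 2.17 (SE 0.49, edgeR adjusted p = 0.0400). By that rule 7.87% of all genes were called. The 9 pan-macrophage genes past the study's thresholds in either direction in Model VS Normal were 4 without the first model liver and 5 without the second or the third normal liver. The shares of all genes were then 16.0%, 17.8% and 18.9%. The 7 in either direction in TA VS Model were 2 without the first model liver, 4 without the first TA liver, 0 without the second and 2 without the third. For all genes these shares were 6.13%, 10.4%, 7.34% and 9.50%.

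Of 9 tested monocyte and recruited macrophage genes, 7 were higher in Model VS Normal by the study's thresholds, where 16.6% of all genes were. At adjusted p under 0.05 there were 4, namely Ccl2, Itgax, S100a8 and S100a9, where 7.87% of all genes were called. With TA, 7 were lower than in the model group by the study's thresholds, where 10.2% of all genes were. They were led by Vcan, a matrix proteoglycan, at -4.09 and Ccl2, a monocyte chemokine, at -3.69. Vcan had 42 to 1140 reads in the model livers and 2 to 31 in the TA livers, and Ccl2 had 49 to 470 and 6 to 12. Without the first model liver 4 genes of this list passed in TA VS Model, where 6.13% of all genes did. Of 8 genes of scar-associated macrophages, all 8 were higher in Model VS Normal by the study's thresholds, where 16.6% of all genes were, with a median of 5.25. Trem2, Gpnmb, Cd9, Lpl, Mmp12 and Cd63 also passed an adjusted p under 0.05, where 7.87% of all genes did. In TA VS Model 7 were lower by the study's thresholds, where 10.2% of all genes were, with a median of -2.73. Without the first model or the second TA liver 4 passed, where 6.13% and 7.34% of all genes did. In TA VS Normal 7 of the 8 scar-associated genes were higher by the study's thresholds, where 5.25% of all genes passed in either direction. Gpnmb, a lysosomal glycoprotein, at 3.43 had an edgeR adjusted p of 0.0431, where 0.263% of all genes were called.

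**Figure D5:**
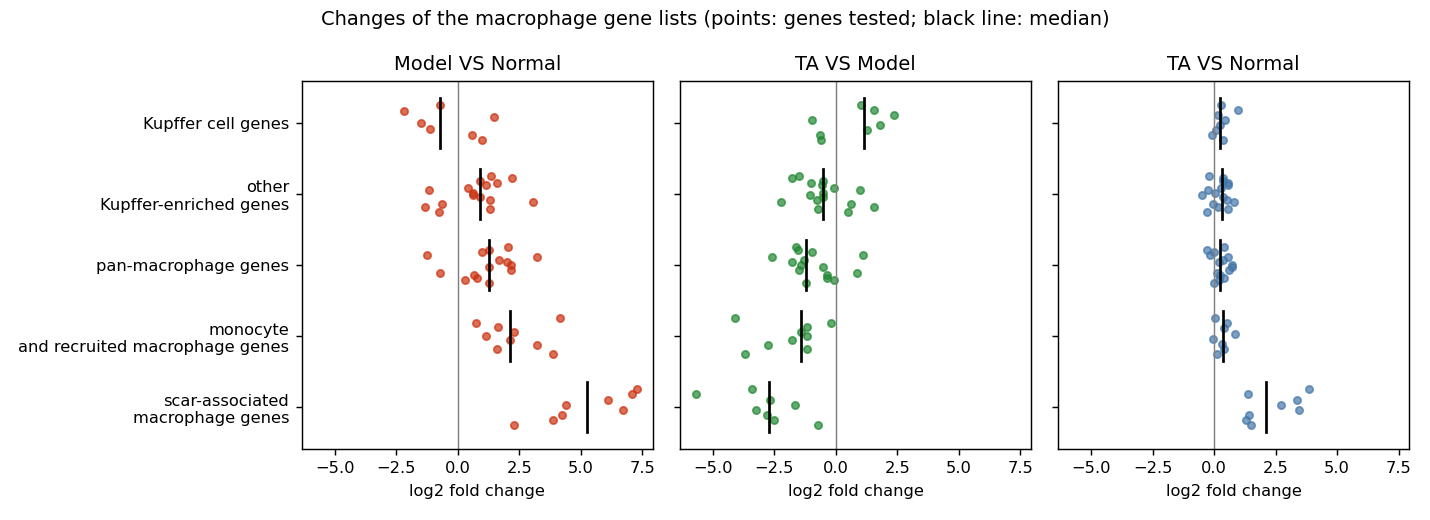
Log2 fold change of every tested gene of 5 macrophage gene lists, as points, with each list's median as a black line, in the 3 comparisons. In Model VS Normal the medians are -0.71 for the Kupffer cell genes, 0.93 for other Kupffer-enriched genes, 1.27 for pan-macrophage genes, 2.14 for monocyte genes and 5.25 for scar-associated genes.

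Csf1 and Il34, the ligands of the receptor encoded by Csf1r, were both higher in Model VS Normal by the study's thresholds, at 1.39 (SE 0.35) and 1.15 (SE 0.50), and lower in TA VS Model, at -1.67 (SE 0.38) and -1.07 (SE 0.45). By these thresholds 16.6% of all genes were higher in Model VS Normal and 10.2% lower in TA VS Model. Without the first model liver 0 of the ligands passed the study's thresholds in Model VS Normal, where 16.0% of all genes did. Without the second or the third normal liver 1 passed, where 17.8% and 18.9% did. The 2 in TA VS Model were 1 without the first model liver or without any 1 TA liver, where 6.13% to 10.4% of all genes passed. Csf1 had 80 to 96 reads in normal, 185 to 577 in model and 48 to 98 in TA livers. C3, the source of the complement fragments that the product of Vsig4 binds, had 125890 to 155962 reads in normal and 54962 to 113510 in model livers, with a log2 fold change of -0.85 (SE 0.72, edgeR adjusted p = 0.463). Hp, which encodes haptoglobin, had -0.93 (SE 0.83, edgeR adjusted p = 0.483). Both are hepatocyte genes, and the hepatocyte markers were lowest in the first model liver, as given above. The part of the hepatocyte markers in these values was not tested.

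A list of 6 ligands held signals known to act on Kupffer cell identity, with Jag1 added as another Notch ligand. In Model VS Normal their median log2 fold change was -0.21, and 3 of the 6 were above 0. By the study's thresholds Jag1, at 2.08 (SE 0.43, edgeR adjusted p = 0.0325), and Tgfb1, at 2.16 (SE 0.57), were higher, where 16.6% of all genes were. Of the 6, 0 were lower, where 5.55% of all genes were. Jag1 and Tgfb1 were the 2 lower in TA VS Model, at -1.67 and -1.72, where 10.2% of all genes were lower. Without the third model liver 4 of the 6 passed in each of these comparisons, where 29.8% and 21.2% of all genes passed. Without the first model liver 1 passed in TA VS Model, where 6.13% of all genes did. Gdf2, which encodes BMP9 of stellate cells, had a log2 fold change of -1.32 (SE 0.64, edgeR adjusted p = 0.210) in Model VS Normal and 1.53 (SE 0.67) in TA VS Model, and passed neither rule.

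Of 8 haem and iron recycling genes, 4 were higher in Model VS Normal by the study's thresholds, where 16.6% of all genes were. In TA VS Model 2, Hmox1 and Spic, were lower, where 10.2% of all genes were. Hmox1, which encodes haem oxygenase 1, had 24289 reads in the first model liver, 1332 and 354 in the others and 289 to 542 in normal livers. Without the first model liver, 1 of the 8 passed against normal livers and 0 between TA and model livers, where 16.0% and 6.13% of all genes passed. Without the second or the third normal liver 1 passed in Model VS Normal, where 17.8% and 18.9% of all genes did. The 2 in TA VS Model were 1 without the second and 0 without the third TA liver, where 7.34% and 9.50% of all genes passed. Of 12 efferocytosis genes, which serve the uptake of dying cells, 5 were higher in Model VS Normal by the study's thresholds, where 16.6% of all genes were. They were led by Elmo1 at 2.22 and Cd36 at 1.85. Mfge8 at 1.31 (SE 0.31) had an edgeR adjusted p of 0.0443, where 7.87% of all genes were called. Pros1 was the 1 higher in TA VS Model, at 1.08, and Gas6 the 1 lower, at -1.23, where 2.11% and 10.2% of all genes were. Those 5 genes were 3 without the first model, the second normal or the third normal liver, where 16.0%, 17.8% and 18.9% of all genes passed. Without the third model liver they were 9, where 29.8% of all genes passed. The 2 in TA VS Model were 4 without the third model liver and 1 without the first model or the second TA liver. The shares of all genes were then 21.2%, 6.13% and 7.34%.

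Markers of other liver cells differed between the groups as well. The 6 stellate cell and fibroblast markers summed to 179.9 to 263.4 CPM in normal, 1139 to 12338 CPM in model and 633.3 to 1122 CPM in TA livers. Cholangiocyte markers summed to 17.5 to 30.4 CPM in normal, 102.5 to 1983 CPM in model and 32.7 to 49.2 CPM in TA livers, and mesothelial markers to 0.839 to 2.49 CPM in normal, 24.95 to 82.8 CPM in model and 4.65 to 12.2 CPM in TA livers. In both lists every model liver lay above every normal and every TA liver. The cholangiocyte markers include Spp1 of the scar-associated list, which alone had 26.7 to 1845 CPM in model livers. Epcam of the same markers had 13.7 to 20.2 CPM in normal, 53.9 to 96.3 CPM in model and 23.6 to 26.1 CPM in TA livers. The 5 markers of sinusoidal endothelium summed to 160.8 to 199.1 CPM in normal, 93.3 to 144.3 CPM in model and 190.8 to 229.9 CPM in TA livers, with none at 0 in any liver. The means of Stab2, Clec4g, Oit3 and Kdr were lower in model than in normal livers. Lyve1 had a mean of 48.2 CPM in normal and 48.6 CPM in model livers. The 5 neutrophil markers, which include S100a8 and S100a9 of the monocyte list, summed to 9.52 to 22.6 CPM in normal, 34.1 to 84.7 CPM in model and 16.5 to 30.3 CPM in TA livers, with 1 of them at 0 in each normal liver. The part of these cell types in the levels of the 8 genes was not tested.

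The 5 genes outside the lists whose centred log2 CPM profile over the 9 livers lay nearest to the mean profile of the Kupffer cell genes were Tcp1, LOC100361993, Fam167a, Ptges3l1 and Nap1l5, with root mean square differences of 0.297 to 0.305 on the log2 scale. For single genes, named after their values were seen, the nearest profile to Clec4f was that of Fmo1, a hepatocyte oxygenase, at 0.183, with Stab2, a scavenger receptor of sinusoidal endothelium, at rank 5 and 0.348. The nearest to Csf1r was that of Grn, the progranulin gene, at 0.190, and to Adgre1 that of Skap2, an adaptor protein gene, at 0.147. All these distances are over the same 9 libraries, among which the first model liver stood apart, and are given as a description.

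Promoter windows were read from RefSeq for all 8 genes, because all 8 are genes of the macrophage lineage. Each window ran from 250 bases before to 50 after the start site in build GRCr8. On either strand, the PU.1 core GAGGAA was found in the windows of 4 of the 8 genes, Adgre1, Cd5l, Csf1r and Marco, and in 27.6% of 33469 windows. The RBPJ motif TGGGAA, bound by the Notch effector, was found in 3, Clec4f, Csf1r and Marco, and in 25.7% of all windows. The nuclear receptor half-site AGGTCA was found in 2, Clec4f and Timd4, and in 16.2% of all windows. No matches of different motifs overlapped in these windows. The PU.1 core was in the windows of Marco and Cd5l, which were lower in the model group by the study's thresholds, and in those of Csf1r and Adgre1, which were higher. The windows of a pair that was lower and of Adgre1, which was higher, follow with the PU.1 core in capitals, read on the opposite strand in Cd5l, and that of Clec4f, which holds no PU.1 core, with the second copy of a repeat in capitals.
Marco, GRCr8 chr13:34201206-34201505, minus strand: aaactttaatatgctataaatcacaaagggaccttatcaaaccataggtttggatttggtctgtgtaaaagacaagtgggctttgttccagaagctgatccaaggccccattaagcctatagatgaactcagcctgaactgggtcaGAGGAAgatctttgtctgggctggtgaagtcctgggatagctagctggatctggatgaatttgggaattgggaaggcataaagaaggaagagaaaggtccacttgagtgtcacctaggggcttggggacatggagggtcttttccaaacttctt
Cd5l, GRCr8 chr2:175088665-175088964, plus strand: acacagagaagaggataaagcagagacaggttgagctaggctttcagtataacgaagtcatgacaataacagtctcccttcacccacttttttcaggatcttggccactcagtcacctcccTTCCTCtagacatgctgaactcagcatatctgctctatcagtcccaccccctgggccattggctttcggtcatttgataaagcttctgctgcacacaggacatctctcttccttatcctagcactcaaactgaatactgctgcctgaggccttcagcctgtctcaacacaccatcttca
Adgre1, GRCr8 chr9:2329190-2329489, plus strand: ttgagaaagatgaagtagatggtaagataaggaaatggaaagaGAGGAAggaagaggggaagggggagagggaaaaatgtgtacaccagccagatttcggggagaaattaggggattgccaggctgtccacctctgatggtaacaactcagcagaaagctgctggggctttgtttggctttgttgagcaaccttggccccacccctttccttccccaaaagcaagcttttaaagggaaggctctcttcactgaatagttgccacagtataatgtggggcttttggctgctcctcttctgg
Clec4f, GRCr8 chr4:117696358-117696657, minus strand: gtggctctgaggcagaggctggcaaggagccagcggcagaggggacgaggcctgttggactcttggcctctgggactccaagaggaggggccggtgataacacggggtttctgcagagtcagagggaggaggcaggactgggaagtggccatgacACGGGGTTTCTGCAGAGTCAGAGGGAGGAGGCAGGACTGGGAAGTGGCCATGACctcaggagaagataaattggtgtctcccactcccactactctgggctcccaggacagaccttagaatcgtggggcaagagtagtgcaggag
In Marco the core begins 104 bases before the start site, in Cd5l 129 and in Adgre1 207 bases before it. The window of Clec4f, with 60.3% G and C against a median of 51.7% over all windows, holds an exact direct repeat of 54 bases in tandem. The copies begin 149 and 95 bases before the start site, and each holds 1 RBPJ motif. Matches of letters are a description and do not show that a factor binds there.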

How the data were processed

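Liver poly(A) RNA of 3 normal, 3 model and 3 TA rats was sequenced, and the authors deposited a table for Model VS Normal and a table for TA VS Model. Each table held read counts per gene as deposited, size-factor-normalised values (a signal scale) and FPKM made by the authors, beside fold changes, p-values and adjusted p-values of the authors' own comparisons, which were not used. The tables listed 16938 and 16948 genes, and the model counts were identical in both. The study's methods name a human build and the submitters' processing notes name mm9 and DESeq2, while the gene names are those of rat. Which build was aligned to is thus not settled, and no coordinate of the tables was used. Whether counting used strand is not given in the sources used here, so that reads of overlapping or antisense genes cannot be told apart. Of 17156 gene names, 15601 (90.9%) matched RefSeq names of GRCr8. All value columns were assigned to a library.

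Counts were fitted in R 4.3.3 with edgeR 4.0.16 (TMM scaling, filterByExpr at a minimum count of 10, quasi-likelihood test) on the 6 livers of each comparison. A gene was called at a Benjamini-Hochberg adjusted p under 0.05, or by the study's thresholds, namely p under 0.05 before adjustment and a log2 fold change larger than 1 in either direction. Log2 CPM used a prior count of 2. The FPKM values that the authors deposited were used only to compare genes within a liver. Group comparisons of ratios used exact two-sided permutation tests. Counting error alone is the floor of precision at a few reads, as for Timd4. Alternatives were DESeq2 1.42.0, limma 3.58.1 voom with sample quality weights, other scalings, filters and forms of the fit, all 9 libraries in 1 fit, a replicate block and leaving out each library. The fits were tested on simulated data. Same-numbered livers deviated together in TA VS Normal (correlations of 0.258, 0.426 and 0.501). In Model VS Normal the correlations were 0.210, -0.057 and -0.052, and in TA VS Model 0.218, -0.035 and 0.007. Only the livers numbered 1 deviated together there, and the pairing rests on the replicate numbers alone.

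The members and the gene lists were chosen with earlier results of these data known. Genes named from the lists were those at adjusted p under 0.05 and otherwise the 2 with the largest fold change at an unadjusted p under 0.05. Clec1b, Nr1h3, Gdf2, C3, Hp and the nearest profiles of single genes were named after their values were seen. The values of 1 gene of the pan-macrophage list and 1 motif searched are not reported here.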

Additional observations from a re-analysis of the deposited data

How the results depend on the processing

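Over the alternatives, 330 log2 fold changes of the 8 genes kept their direction and their side of the adjusted threshold, 12 kept the direction and passed it, and 24 changed direction. All counts below are of the 8 genes, and shares are of all genes tested. At adjusted p under 0.05 in Model VS Normal, where edgeR called 0, DESeq2, no filter on low counts and the replicate block each called 1 (Marco), limma voom called 5, and leaving out 1 library called 0 to 4 (2 without the first and 4 without the third model liver). The shares were 7.87% by edgeR, 16.1% by DESeq2, 7.17% with no filter, 9.55% with the block and 27.0% by limma voom. They were 0% to 19.3% with 1 library left out. By the study's thresholds, leaving out 1 library gave 1 to 5 in Model VS Normal, 0 to 3 in TA VS Model and 0 to 1 in TA VS Normal (1 without the first TA liver). The shares were then 16.0% to 29.8%, 6.13% to 21.2% and 4.25% to 7.39%. In TA VS Model that count of 1 was 4 by DESeq2, limma voom, no filter or all 9 libraries in 1 fit, and 2 with the replicate block. The shares were 12.8%, 13.4%, 11.9%, 13.8% and 13.4% in that order. Levels without overlap numbered 3 to 5, 2 to 3 and 0 to 3 in the 3 comparisons when 1 library was left out, with shares of 43.3% to 53.1%, 28.3% to 42.7% and 19.8% to 35.6%. By library totals alone the count was 0 in TA VS Model. The ratio to other macrophage genes separated 0 to 2 in TA VS Normal when 1 library was left out, with shares of 13.3% to 27.6%. With Csf1r as the reference it separated 1, with a share of 7.88%.

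Cd163 in Model VS Normal turned to -1.36 by limma voom and to -0.44 with the replicate block, and ranged from -1.63 to 1.06 when 1 library was left out. In TA VS Model it was 1.31 by limma voom, 0.24 with the replicate block and -1.20 to 1.57 when 1 library was left out. DESeq2 gave it no p in either comparison. Vsig4 in Model VS Normal was 0.012 by library totals alone, and Adgre1 in TA VS Model 0.0031 by limma voom. In TA VS Normal, Marco was -0.25 by limma voom and -0.68 with the replicate block, Cd5l -0.049 with the block, and Cd163 0.12 by library totals alone. When 1 library was left out of TA VS Normal, Clec4f ranged from -0.20 to 0.48, Vsig4 from -0.070 to 0.56, Marco from -1.68 to 0.64, Cd163 from -0.65 to 0.15, Cd5l from -0.65 to 0.44, Csf1r from -0.021 to 0.67 and Adgre1 from -0.017 to 0.54. The replicate block changed no call of the 8 genes in TA VS Normal. The cause of these changes was not tested. With 2 to 28 reads a liver, the depth of Timd4 limits what could be detected.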
